A study of Mus musculus with 16 samples.

Results

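The question addressed here is whether the response of cultured mouse ovarian follicles to anti-Müllerian hormone (AMH) was the same after 12 h and after 24 h. The quantity followed is a difference of differences. The log2 change with AMH (AMH minus control within a pair of arrays) was taken at 24 h and the same change at 12 h was subtracted from it, gene by gene. All 16 arrays of the series were members of this comparison, 4 in each combination of treatment and time. The 4 groups were controls at 12 h, AMH at 12 h, controls at 24 h and AMH at 24 h. They received 0 or 50 ng/ml recombinant AMH. The medium of all of them, controls included, held the gonadotropins FSH (follicle-stimulating hormone, 80 IU/L) and LH (luteinizing hormone, 10 IU/L). The donors were female C57BL/6Tac mice, labelled as 8 weeks old. Each experiment pooled the follicles of 8 mice, from the preantral to the small antral stage, and an array held 6 to 9 follicles. The control and the AMH array of a pair shared 1 pool. The labels do not say whether both times shared a pool.

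AMH is a member of the transforming growth factor β family that granulosa cells of small growing follicles secrete. It binds its own type II receptor, Amhr2, which pairs with type I receptors shared with bone morphogenetic proteins (BMPs) and signals through SMAD1, SMAD5 and SMAD9. In the ovary it is known to restrain the recruitment of primordial follicles and to lower the response of growing follicles to FSH.

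RNA was measured as linear signal per probe set, and all values below are log2(signal + 1.46), a scale that understates changes of dim genes. A change or a difference of 1 on this scale is a doubling of signal. Genes with a mean log2 level of at least 4.18 were tested, which left 12172. Median signals per array lay between 27.8 and 40.2 and correlations between arrays of a group between 0.923 and 0.977. The number of arrays, 4 a group, limits the precision. Arrays paired by the labels deviated together from their group means at 12 h (correlations of 0.214 to 0.56). At 24 h the correlation was 0.327 and 0.2 in pairs 2 and 3, but -0.437 in pair 1 and -0.287 in pair 4. The arrays also differed in cell content. The summed signal of 22 oocyte genes ranged from 3810 to 18500. The highest and the lowest oocyte mean of all arrays were at 12 h, in control replicates 3 (9.16) and 4 (6.84). At 24 h the 2 highest belonged to control replicate 4 (8.85) and AMH replicate 1 (8.70). The oocyte list changed by -0.70, -0.93 and 1.02 within pairs 1, 3 and 4 of 12 h, and by 0.96 and -1.38 within pairs 1 and 4 of 24 h. Counts that compare the pairs of both times, below, are also given without pairs 1 and 4 of 24 h, where the correlation was below 0. The uneven pairs of 12 h stayed in those counts. Of the marker lists, 14 granulosa, 4 theca, 13 stroma, 16 endothelial, 12 immune and 12 surface epithelium genes passed the level filter and count as measured. The filter uses the mean over all arrays and no detection call, so it does not show each cell type on every array. The labelled tissue is the follicle, and granulosa and oocyte markers were measured beside those of vessels, stroma, immune cells and surface epithelium.

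No gene passed the threshold for the difference, an adjusted p under 0.05 by limma (0 of 12172, or 0%). The lowest adjusted p was 0.133. At an unadjusted p under 0.05 there were 687 genes (5.64%), 343 with a difference above 0 and 344 below. Over all genes 49.5% of differences were above 0. At the single times no gene passed at 12 h, and 2 passed at 24 h, Dpt and Spon1, both close to the threshold (adjusted p = 0.048). Without the replicate block (the pair as a term in the fit) neither passed (adjusted p = 0.0544 for Dpt and 0.051 for Spon1). Over 28 alternatives Dpt passed at 24 h in 10 (adjusted p from 0.00399 to 0.961) and Spon1 in 8 (0.0133 to 0.889), although their changes stayed between 1.63 and 2.16 and between 1.16 and 1.42. At 12 h Igfbp5 and Vstm4 passed with the block as a random effect or by number over both times, and 0 to 6 genes passed in the other alternatives. So every value of a difference below is a measured value that did not pass the test.

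Gene by gene, the size of the AMH effect at 12 h was hardly related to its size at 24 h. The 2 effects share no array, and over all genes they had a Pearson r of -0.07 and a Spearman rho of -0.06, a description across genes, which are not independent replicates. The signs were opposite in 52.1% of genes. Among the 116 genes with a change of at least 1 at either time, r was -0.23 and 71 genes (61.2%) had opposite signs. Changes of at least 1 were counted for 64 genes at 12 h, 47 higher and 17 lower with AMH, and for 55 at 24 h, 34 higher and 21 lower. All 4 pairs were higher with AMH for 1245 genes at 12 h and for 724 at 24 h, and all 4 lower for 938 and 419.

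**Figure D1:**
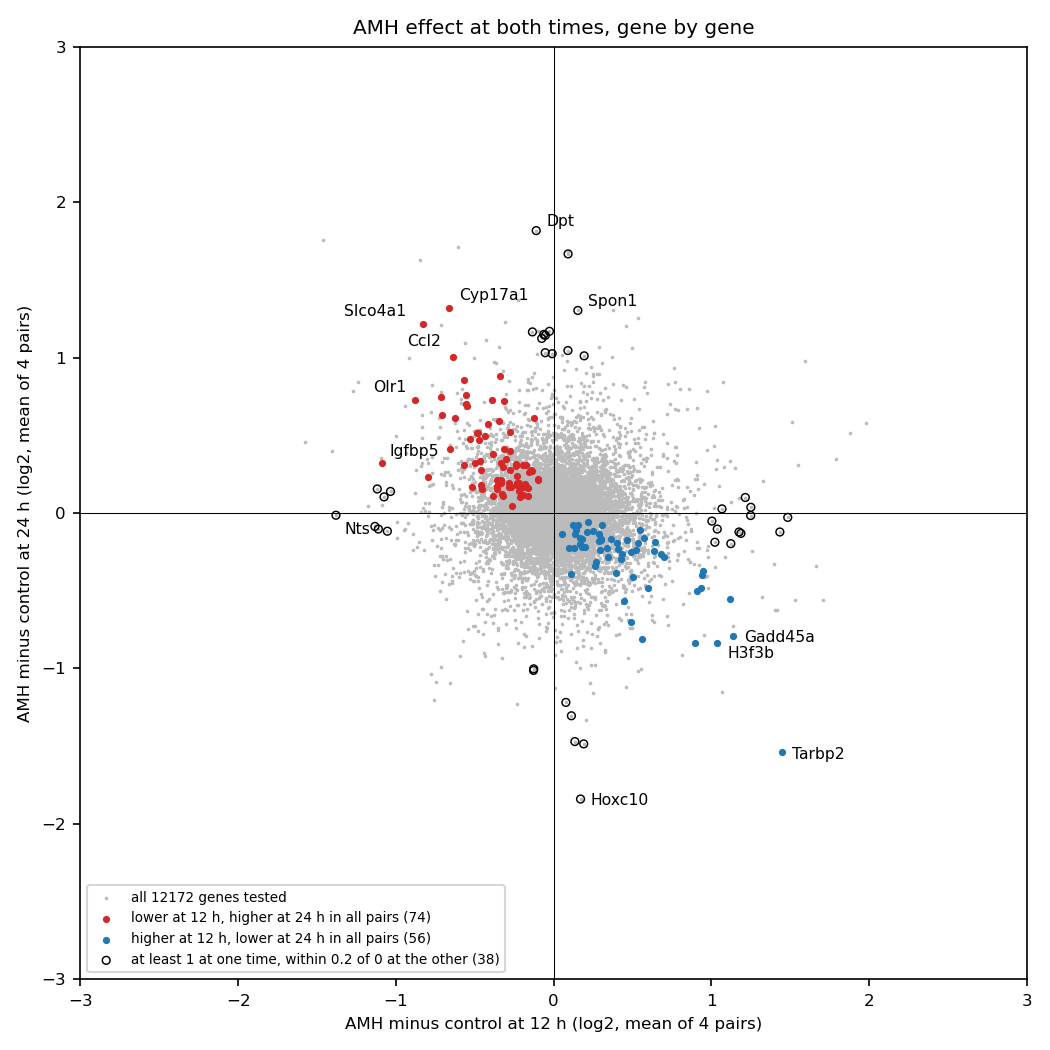
AMH effect at 12 h (horizontal axis) and at 24 h (vertical axis) for 12172 genes, each the mean log2 change of 4 pairs. Red and blue points are the 74 and 56 genes whose pairs all pointed one way at 12 h and the other way at 24 h, open circles the 38 genes with a change of at least 1 at one time and within 0.2 of 0 at the other. The grey cloud has hardly any slope (r = -0.07).

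The 10 genes of smallest p with a difference above 0 were lower with AMH at 12 h and higher at 24 h on average, and their differences lay between 0.75 and 2.04 (SE 0.14 to 0.33, limma adjusted p = 0.133 to 0.319). The smallest p was that of Igfbp5, which encodes a binding protein that holds insulin-like growth factors in the matrix. Its levels were 11.69, 11.72, 11.22 and 11.55 in controls and 10.18, 10.84, 10.01 and 10.79 with AMH at 12 h, and 11.46, 11.64, 11.45 and 11.72 in controls and 12.22, 11.89, 11.65 and 11.82 with AMH at 24 h. All 4 AMH arrays at 12 h lay below every other array, while the other 3 groups overlapped. Igfbp5 was 2.13-fold lower with AMH at 12 h and 1.25-fold higher at 24 h, a difference of 1.42 (SE 0.19, limma adjusted p = 0.133). A further Igfbp5 probe set gave 0.90.

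Slco4a1, an organic anion transporter that carries thyroid hormone, had levels of 7.30, 7.38, 8.07 and 7.33 in controls and 6.22, 6.64, 7.02 and 6.89 with AMH at 12 h, and 6.44, 5.93, 6.08 and 6.88 in controls and 8.03, 6.10, 7.70 and 8.36 with AMH at 24 h. It was lower with AMH in every pair at 12 h and higher in every pair at 24 h, with pair 2 nearly level at 24 h (a change of 0.17, against 1.48 to 1.62 in the others). Its difference was 2.04 (SE 0.33, adjusted p = 0.21). Dpt, which encodes the matrix protein dermatopontin, had levels of 4.70, 4.66, 5.46 and 5.90 in controls and 5.08, 4.65, 5.31 and 5.25 with AMH at 12 h, and 6.70, 6.00, 5.72 and 6.55 in controls and 7.81, 8.14, 7.90 and 8.40 with AMH at 24 h. Its changes at 12 h fell on both sides of 0, and the AMH arrays at 24 h lay above all other 12. At 24 h Dpt rose with AMH, by 1.82 (SE 0.23, limma adjusted p = 0.048, and 0.0544 without the replicate block), against -0.11 at 12 h.

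Tmem204, a membrane protein of endothelial cells, had changes of 0.35, -0.67, -0.71 and -0.69 in pairs 1 to 4 at 12 h and of 0.93, 1.36, 0.82 and 1.36 at 24 h. Pair 1 was the exception at 12 h, and all pairs of 24 h lay above all pairs of 12 h. Emcn, the endothelial sialomucin endomucin, had changes of -0.49, -0.53, -0.67 and -0.22 at 12 h and 0.39, 0.73, 0.66 and 0.28 at 24 h, with no overlap. Ccl2, a chemokine that draws monocytes, had levels of 7.05, 7.03, 8.73 and 8.97 in controls and 6.76, 6.60, 7.55 and 8.32 with AMH at 12 h, and 5.37, 6.05, 6.44 and 6.95 in controls and 6.77, 7.10, 6.57 and 8.40 with AMH at 24 h. The arms of Ccl2 overlapped at each time, but within pairs it was lower with AMH at 12 h in all and higher at 24 h in all. The others of the 10 were Sat1, which acetylates polyamines for breakdown (difference 0.75), Olfm1, a secreted olfactomedin (0.99), the scavenger chemokine Cxcl16 (0.95) and the fibroblast growth factor receptor Fgfr2 (1.13).

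The 10 genes of smallest p with a difference below 0 were the mirror image, higher with AMH at 12 h and lower at 24 h, with differences from -0.83 to -2.10 (SE 0.17 to 0.42, adjusted p = 0.133 to 0.32). Cela3b, annotated as an elastase of the pancreas, had levels of 9.30, 9.23, 8.69 and 8.18 in controls and 9.66, 9.78, 9.36 and 8.57 with AMH at 12 h, and 9.91, 9.82, 10.44 and 10.45 in controls and 9.32, 8.74, 9.69 and 10.06 with AMH at 24 h. Its arms overlapped at both times, but pair changes were 0.36, 0.55, 0.68 and 0.38 at 12 h and -0.58, -1.08, -0.74 and -0.39 at 24 h, a difference of -1.19 (SE 0.17, adjusted p = 0.133). The remaining 3 Cela3b probe sets gave values from -1.08 to -0.68. Probe sets of one gene can share probes, so they are not separate measurements.

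Gadd45a, a stress and growth arrest gene, had levels of 8.08, 8.13, 7.56 and 8.06 in controls and 9.84, 9.24, 8.61 and 8.70 with AMH at 12 h, and 9.33, 10.16, 9.81 and 9.07 in controls and 8.05, 9.62, 8.47 and 9.05 with AMH at 24 h. All AMH arrays lay above all controls at 12 h. At 24 h the arms overlapped. Pair 4 was level (-0.01), and pairs 1 and 3 had the changes farthest below 0 (-1.28 and -1.34). Its AMH effect was 2.21-fold higher at 12 h and 1.73-fold lower at 24 h, a difference of -1.93 (SE 0.32, adjusted p = 0.21). Dpysl4, a collapsin response mediator of neurites that p53 is known to induce, had levels of 6.49, 4.85, 5.59 and 5.32 in controls and 8.74, 6.75, 6.28 and 6.61 with AMH at 12 h, and 9.21, 9.62, 8.54 and 8.00 in controls and 7.59, 9.30, 7.96 and 8.26 with AMH at 24 h. Its 12 h change was above 0 in every pair (2.25, 1.90, 0.69 and 1.29), and at 24 h pair 4 pointed the other way from pairs 1 to 3. The difference was -2.10 (SE 0.42, adjusted p = 0.319). The others were Efs, an adaptor of SRC kinases (-1.41), Pyroxd2, a mitochondrial oxidoreductase (-1.34), Adhfe1, a hydroxyacid transhydrogenase (-1.38), the sodium-activated potassium channel Kcnt1 (-1.42), Tmem8b (-1.32), Scaper (-0.88) and the clock output factor Dbp (-0.82).

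**Figure D2:**
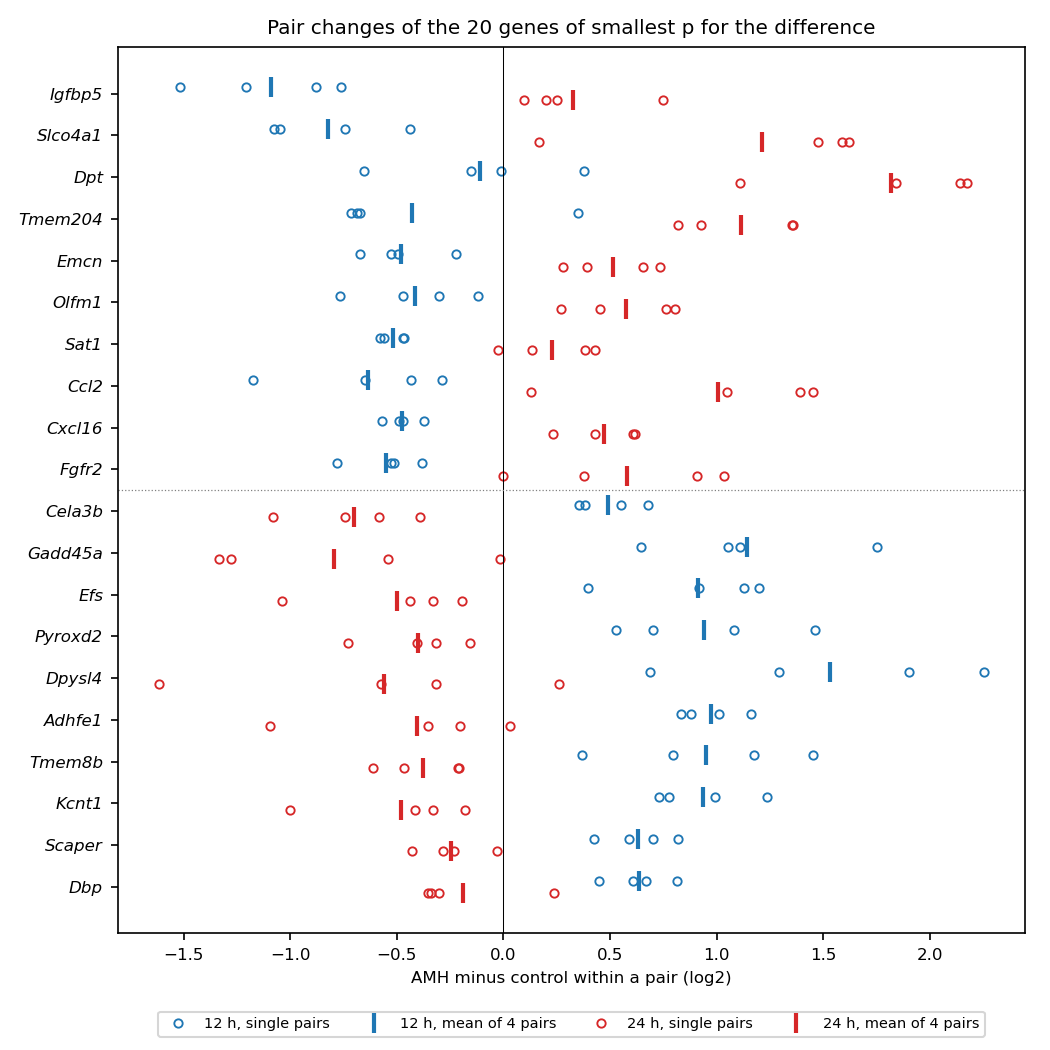
Log2 change with AMH within each of 4 pairs at 12 h (blue) and 24 h (red) for the 10 genes of smallest p above 0 (top) and the 10 below 0 (bottom). Bars mark means of 4 pairs, and in all 20 genes no red circle lies among the blue ones. The genes were picked by this difference.

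Lack of overlap between the pair changes of both times was counted for all genes. In 204 genes (1.68%) every pair change at 24 h lay above every one at 12 h, and in 234 (1.92%) every one lay below. With each array centred on its median these counts were 382 and 58. Without pairs 1 and 4 of 24 h, where fewer pairs have to concur, they were 1275 and 1319. All 20 genes above belong to the 204 and 234 as reported, as their choice by p favours. Of the 100 genes of smallest p for the difference, 54 had a difference above 0. Of the 31 genes picked by p or, as below, by a turn of direction, 16 had another probe set over the filter. All 22 of those probe sets had a difference of the same sign, 17 at an unadjusted p under 0.05 by limma. Over all probe sets, 1395 of 23238 had such a p. The 22 read the same RNA of genes picked by this difference and can share probes, so a like sign was favoured. How often probe sets of genes not picked share a sign was not counted.

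Each arm can also be viewed on its own, as its group mean at 24 h minus that at 12 h. Such a change is not paired, so differences between pools and in cell content between the times are part of it. These changes use the same arrays as the difference, so they describe it and are no separate evidence. For the 10 genes with a difference below 0, controls were higher at 24 h than at 12 h by 0.28 to 3.28, while the AMH arm moved between -1.13 and 1.19. Dpysl4 was 3.28 higher in controls and 1.19 higher with AMH, Pyroxd2 2.29 and 0.95, and Kcnt1 2.34 and 0.92. Gadd45a differed by 1.64 in controls and by -0.30 with AMH. For the 10 genes above 0 controls moved between -1.74 and 1.06, lower in 6 genes, and the AMH arm between -0.52 and 2.99, higher in 7. Igfbp5 controls differed by 0.02 between times and AMH arrays by 1.44, whereas Ccl2 differed by -1.74 in controls and by -0.10 with AMH.

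**Figure D3:**
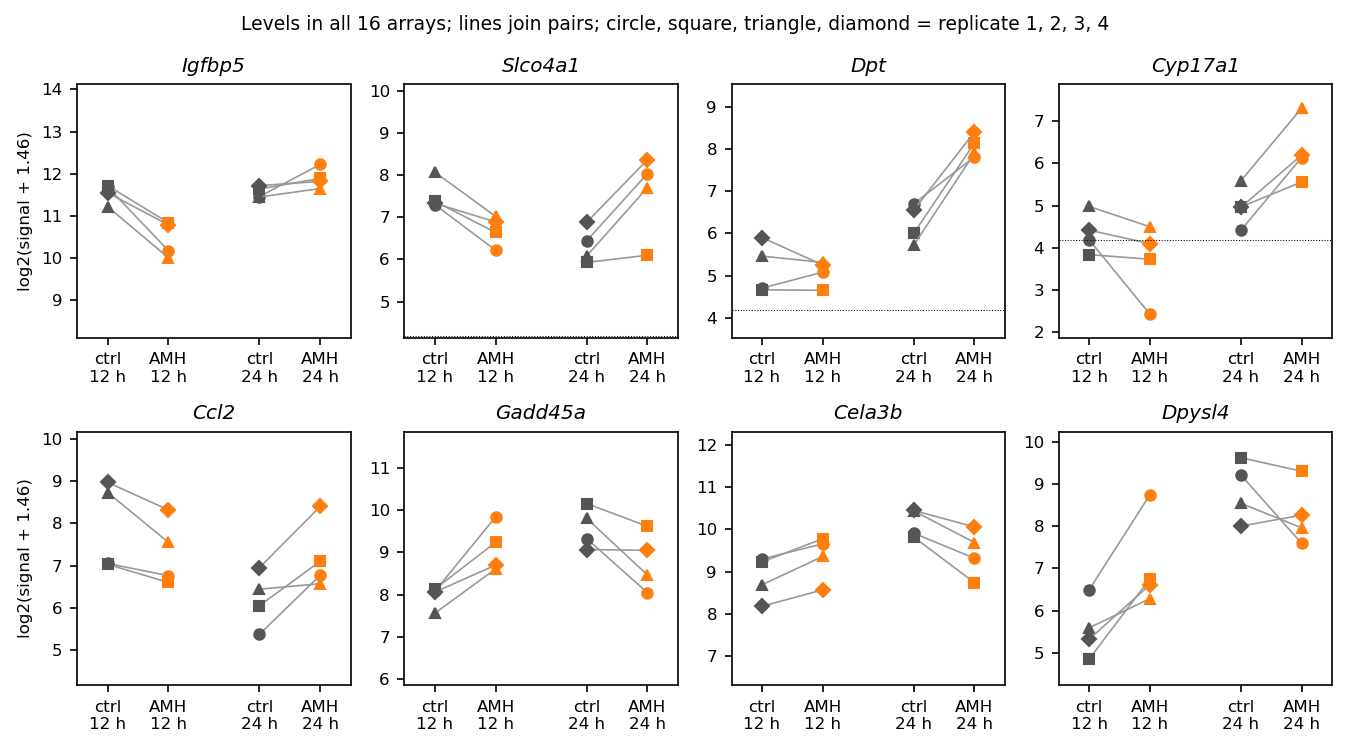
Levels of 8 genes on all 16 arrays, log2(signal + 1.46). Grey points are controls, orange points AMH, lines join pairs, and the dotted line is the filter level of 4.18. Lines slope down at 12 h and up at 24 h for Igfbp5, Slco4a1, Cyp17a1 and Ccl2, and the reverse for Gadd45a and Cela3b.

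The promoters of Igfbp5 and Gadd45a, bright genes with opposite turns, are shown for a reader who wants to look for motifs. Each is the 250 bases before the annotated start in the RefSeq table (GRCm38.p6), read 5′ to 3′ on the gene's strand, which is the minus strand for both. Capitals mark matches to the core SMAD box, CAGAC, on either strand. Igfbp5 lies at chr1:72858065-72874865 and its window at chr1:72874866-72875115. Gadd45a lies at chr6:67035096-67037407 and its window at chr6:67037408-67037657.
Igfbp5: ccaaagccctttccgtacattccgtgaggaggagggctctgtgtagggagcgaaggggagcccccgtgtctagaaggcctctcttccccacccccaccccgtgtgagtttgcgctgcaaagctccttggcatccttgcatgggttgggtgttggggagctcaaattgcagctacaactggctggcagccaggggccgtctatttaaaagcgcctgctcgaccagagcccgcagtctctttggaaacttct
Gadd45a: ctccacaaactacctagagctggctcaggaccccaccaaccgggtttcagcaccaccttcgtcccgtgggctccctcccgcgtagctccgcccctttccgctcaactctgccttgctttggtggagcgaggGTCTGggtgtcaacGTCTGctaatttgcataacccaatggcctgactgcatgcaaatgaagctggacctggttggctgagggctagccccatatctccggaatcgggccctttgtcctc

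The Igfbp5 window held none of the 4 motifs searched on both strands, and the Gadd45a window held the SMAD box at -119 and -105. The motifs were the SMAD box CAGAC, the GC-rich SMAD site GGCGCC, the cAMP response element TGACGTCA and the AP-1 site TGANTCA. Over 32851 promoters, 42.2% held the SMAD box, 9.59% the GC-rich site, 1.55% the cAMP response element and 6.75% the AP-1 site. Of the 10 genes above 0, 7 were matched to promoters and 2 of these held the SMAD box. Of the 10 below 0, 7 were matched and 6 held it. A gene counted if any of its promoters held the motif. The shares above are of single promoters, tested genes or not, so the counts cannot be set directly against them. No share per gene over all genes was computed, so these counts of few genes are not read further. Among the named genes that turned, described next, the SMAD box was found in 4 of 5 matched that turned up and in 5 of 6 that turned down. Slco4a1, Ccl2, Gadd45a and Efs are named in both kinds of set. A match describes letters in this window and not a binding site.

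Genes were called turned when all 4 pairs pointed one way at 12 h and all 4 the other way at 24 h, a count with no test of its own. There were 130, of which 74 (0.608%) were lower with AMH at 12 h and higher at 24 h and 56 (0.46%) were higher at 12 h and lower at 24 h. The median effects of the first set were -0.33 and 0.30, and of the other 0.40 and -0.23. For comparison, all 4 pairs were lower for 938 genes at 12 h and higher for 724 at 24 h. They were higher for 1245 genes at 12 h and lower for 419 at 24 h. Some genes would meet both conditions if the times were unrelated, and how many was not computed. The split of the 130 depends on the scaling. With each array centred on its median, which put the median difference of all genes at 0.15, 121 turned up and 9 turned down (93.1% up against 56.9%), and 44 and 4 genes were shared with the counts as reported. Without pairs 1 and 4 of 24 h, where fewer pairs have to concur, the counts were 327 and 384.

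Of the 18 turned genes with a mean change of at least 0.5 at both times, 11 turned up. Beside Slco4a1 and Ccl2 these included Cyp17a1, the enzyme that makes androgens in theca cells, with levels of 4.19, 3.84, 4.98 and 4.42 in controls and 2.43, 3.73, 4.50 and 4.10 with AMH at 12 h, and 4.42, 4.97, 5.59 and 4.96 in controls and 6.14, 5.56, 7.31 and 6.20 with AMH at 24 h. Its 12 h levels lay about the filter of 4.18, so these changes are less certain, and AMH replicate 1 at 12 h, the lowest of all, gave the largest change of that time (-1.76). All AMH arrays at 24 h except that of pair 2 lay above all controls of that time. The difference of Cyp17a1 was 1.99 (SE 0.45, adjusted p = 0.323), and across 27 alternatives it ranged from 1.34 to 2.41. Olr1, a scavenger receptor for oxidized lipoprotein, had a change of -0.88 at 12 h and 0.72 at 24 h. Ets2, a transcription factor downstream of ERK, had -0.71 at 12 h and 0.63 at 24 h, the bone and microglia protein Tmem119 -0.57 at 12 h and 0.85 at 24 h, Tbata, a gene named for thymus, brain and testes, -0.71 at 12 h and 0.74 at 24 h, and Pnmal2 -0.56 at 12 h and 0.70 at 24 h. The differences of these 5 lay between 1.26 and 1.60 with adjusted p values from 0.319 to 0.43.

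Of the 7 that turned down at this size, Gadd45a and Efs were those of smallest p. H3f3b, a replacement histone H3.3 gene, had a change of 1.04 at 12 h and -0.84 at 24 h at levels near the filter (4.38, 3.65, 3.48 and 3.08 in controls at 12 h). Sectm1b, a secreted and membrane protein of immune and epithelial cells, had 1.12 at 12 h and -0.56 at 24 h, Syn3, a synapsin of vesicles, 0.56 at 12 h and -0.81 at 24 h, and the vasopressin receptor Avpr1a 0.89 at 12 h and -0.83 at 24 h. Tarbp2, a partner of Dicer, had the difference farthest below 0 (-2.99, SE 0.97), resting on single arrays: control replicate 1 at 12 h stood at 2.73 against 6.21 to 6.82 in the other controls, and AMH replicate 3 at 24 h at 3.11 against 6.11 to 6.97. Another Tarbp2 probe set gave -0.09.

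A response that appeared at one time was defined as a mean change of at least 1 with all 4 pairs one way, and a mean within 0.2 of 0 at the other time. This held for 38 genes. At 12 h alone 12 were higher (0.0986%) and 7 lower (0.0575%) with AMH, and at 24 h alone again 12 higher (0.0986%) and 7 lower (0.0575%). These counts depend on how dim genes are treated. With an offset of 16 in the log they were 3, 4, 4 and 3, with the filter at the 60th percentile 5, 3, 6 and 4, and with no filter 38, 33, 27 and 49. With pairs left out in turn they ranged from 10 to 22, 2 to 18, 7 to 35 and 0 to 25. Without pairs 1 and 4 of 24 h they were 8, 1, 66 and 13. Of the 20 genes named here, 8 had a difference more than 1.5 times smaller with the offset of 16. A change near 0 in the mean does not show that AMH had no effect there. The genes of 24 h that were higher included Dpt and Spon1. Spon1, which encodes the matrix protein F-spondin, had levels of 6.47, 6.89, 7.08 and 6.74 in controls and 6.82, 7.17, 6.82 and 6.99 with AMH at 12 h, and 7.07, 6.73, 7.34 and 7.78 in controls and 8.49, 8.47, 8.43 and 8.75 with AMH at 24 h. All AMH arrays at 24 h lay above the other 12. Spon1 rose with AMH at 24 h by 1.30 (limma adjusted p = 0.048, and 0.051 without the replicate block) against 0.15 at 12 h, and the difference of 1.15 (SE 0.23) had an adjusted p of 0.319. A further, dimmer Spon1 probe set (mean level of 4.62) gave a difference of 0.675 (SE 0.364). Ank, a pyrophosphate transporter, had changes of -0.05 at 12 h and 1.03 at 24 h, P2ry14, a receptor for UDP-glucose, -0.05 at 12 h and 1.14 at 24 h, and the receptor Fgfr4 -0.07 at 12 h and 1.12 at 24 h.

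Lower with AMH at 24 h alone were Spink4, a trypsin inhibitor family member (0.08 at 12 h and -1.22 at 24 h), Dmbt1, a mucosal scavenger protein (0.19 at 12 h and -1.49 at 24 h), the helicase Pif1 (0.11 at 12 h and -1.30 at 24 h), Hoxc10, a homeobox factor (0.17 at 12 h and -1.84 at 24 h), and Gm7969 (0.14 at 12 h and -1.47 at 24 h). Spink4 at 24 h was 7.04, 7.78, 7.64 and 7.95 in controls and 6.34, 6.30, 6.45 and 6.44 with AMH, with all AMH arrays below all controls. The difference of Pif1 was -1.42, and another Pif1 probe set gave -0.59. Hoxc10 and Gm7969 were scattered. Hoxc10 read 7.97, 8.29, 7.58 and 3.33 in controls and 6.02, 7.78, 2.71 and 3.30 with AMH at 24 h, so the mean of its changes rests on pairs 1 and 3.

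At 12 h alone, Ephx1, the microsomal epoxide hydrolase of xenobiotic breakdown, was higher with AMH, with levels of 7.31, 6.54, 6.38 and 7.03 in controls and 8.04, 7.91, 7.57 and 7.77 with AMH at 12 h, and 8.09, 8.38, 8.26 and 7.70 in controls and 8.11, 7.90, 8.00 and 8.21 with AMH at 24 h. Every AMH array at 12 h lay above every control of 12 h, and both arms overlapped at 24 h. Its changes were 1.00 at 12 h and -0.05 at 24 h. P2ry6, a UDP receptor, had 1.25 at 12 h and -0.02 at 24 h, Morn1 1.25 at 12 h and 0.04 at 24 h, the basement membrane collagen Col4a3 1.19 at 12 h and -0.13 at 24 h and Eldr, a long noncoding RNA gene, 1.12 at 12 h and -0.20 at 24 h. Lower at 12 h alone were Nts, the neuropeptide neurotensin (-1.38 at 12 h and -0.01 at 24 h), Ramp3, a partner of the calcitonin receptor family (-1.12 at 12 h and 0.15 at 24 h), Tie1, an endothelial receptor kinase (-1.07 at 12 h and 0.10 at 24 h), Snap25 of vesicle release (-1.13 at 12 h and -0.09 at 24 h) and the water channel Aqp2 (-1.03 at 12 h and 0.14 at 24 h). Nts and Ramp3 were bright at 12 h and dim at 24 h in both arms. Nts stood between 8.62 and 10.16 in controls at 12 h and between 4.55 and 5.82 at 24 h, so its change at 24 h is measured close to the floor. Tie1, Snap25, Aqp2 and Col4a3 were dim (mean levels of 4.28, 4.19, 4.34 and 4.20, at the filter). With the offset of 16 their differences went from 1.18 to 0.58, from 1.05 to 0.64, from 1.17 to 0.62 and from -1.32 to -0.62. Morn1, Eldr, Dmbt1 and Pif1 were the other 4 of the 8.

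The gene lists were described by counts and medians beside those of all genes, whose median difference was 0.00. Over 27 alternatives the median difference had the other sign in 1 for theca, in 2 for the AMH receptors, in 3 each for SMAD2/3 targets, cholesterol synthesis and glutathione enzymes, in 4 for surface epithelium, in 5 each for oocyte and inhibin genes, in 6 each for granulosa and heat shock genes and in 7 for mitosis. Median centring, among these alternatives, put the median difference of all genes at 0.15. The alternatives of block and variance moderation, also among them, could not move a median. The angiogenic median of 0.28 was 0.06 without 24 h replicate 2, and that of the IGF system, 0.27, was 0.10 without replicate 2. In bulk samples such as these, fewer cells of a type and less RNA per cell cannot be told apart.

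Most genes of the endothelial list had mean changes of opposite sign at the 2 times, but Emcn was the only 1 of 16 that met the definition of turned, with all pairs. All 16 measured genes had a difference above 0 (49.5% over all genes), with a median of 0.65. At 12 h 15 of 16 were lower with AMH (median -0.43) and at 24 h 15 of 16 were higher (median 0.30). None passed, and 4 had an unadjusted p under 0.05, Emcn (0.99), Ptprb, an endothelial phosphatase (0.98), the tight junction claudin Cldn5 (0.78) and the adhesion molecule Esam (0.69). Tie1 had 1.18, the transcription factor Erg 0.89, the fenestral protein Plvap 0.88, Kdr, the main VEGF receptor, 0.80, the junction cadherin Cdh5 0.60, Flt1, a further VEGF receptor, 0.58 and Pecam1 0.56. The lowest was the angiopoietin receptor Tek (0.27). The mean over the list within pairs was -0.50, -0.26, -0.51 and -0.30 at 12 h, and 0.02, 0.67, 0.40 and 0.01 at 24 h. So the values above 0 at 24 h came from pairs 2 and 3, and pairs 1 and 4 were close to 0. Without those 2 pairs the median difference was 0.95, and across 27 alternatives it ranged from 0.44 to 0.95. The levels themselves started apart. The summed signal ranged from 1810 to 5070 in controls and 1370 to 3770 with AMH at 12 h, and from 1500 to 2180 and 1830 to 2740 at 24 h. Arms overlapped at both times, and the part of vessel content in these changes was not tested.

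**Figure D4:**
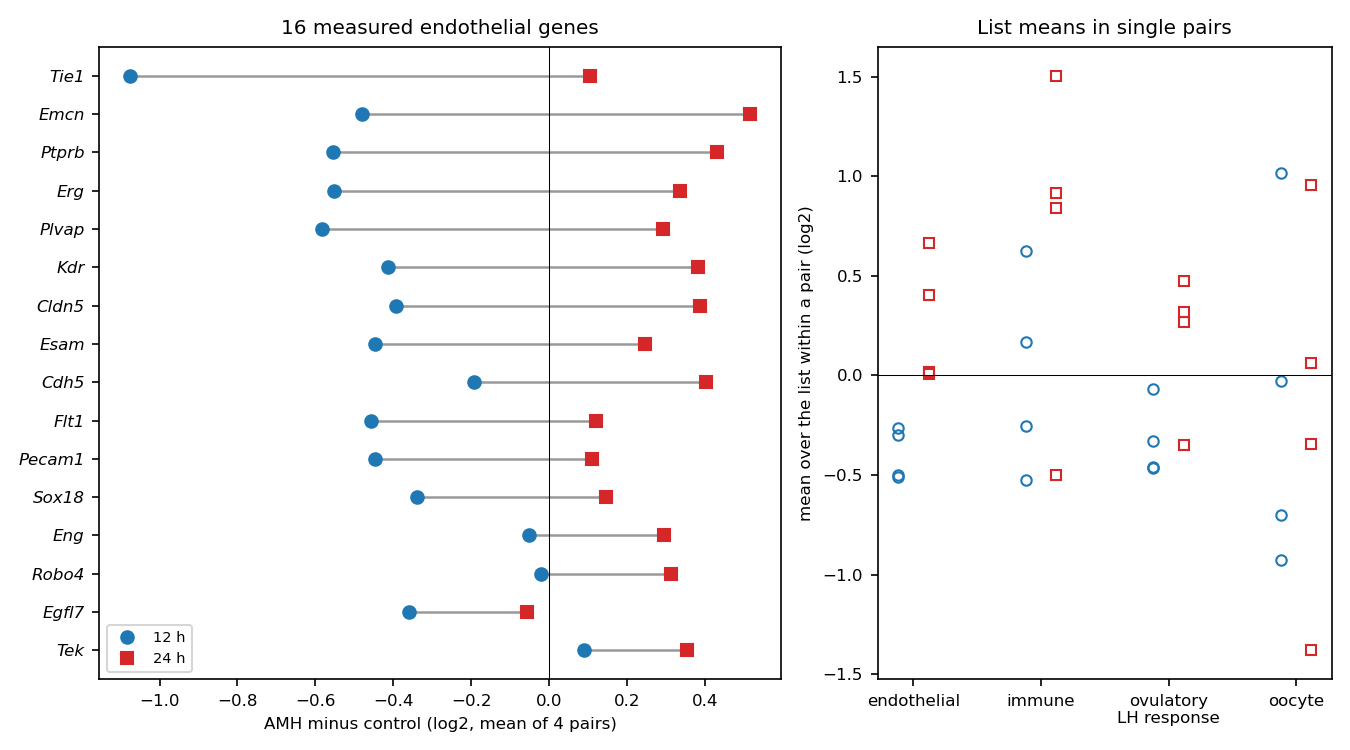
Left, AMH effect at 12 h (circles) and 24 h (squares) for the 16 measured endothelial genes, log2, means of 4 pairs; 15 lie below 0 at 12 h and 15 above 0 at 24 h. Right, mean change over 4 lists within each of the 8 pairs, where the endothelial means are below 0 in all 12 h pairs and the oocyte means spread from -1.38 to 1.02.

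The immune list had all 12 measured genes above 0 as well (median difference 0.62), but from another starting point. At 12 h 8 of 12 were higher with AMH (median 0.06) and at 24 h all 12 (median 0.71). The pair means were 0.63, -0.25, -0.53 and 0.17 at 12 h and -0.50, 0.84, 0.92 and 1.51 at 24 h, so the 2 times overlapped through pair 1. Without replicate 1 the median difference was 1.19, and without replicate 3 it was 0.27. Cd14, a co-receptor for bacterial lipopolysaccharide on monocytes, had 0.95 (SE 0.39), Cd74, the invariant chain, 0.63, the lysozyme Lyz2 0.91 and the complement gene C1qc 1.54 (SE 1.08). Summed immune signals ranged from 891 to 2010 in controls and 1070 to 1570 with AMH at 12 h, and from 495 to 926 and 590 to 1700 at 24 h. The part of immune cell content was not tested. Ccl2 and Cxcl16, chemokines made by many cell types, also had a difference above 0 and are not on this list.

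Other cell type lists were mixed. Of 13 stroma and smooth muscle genes 8 were above 0 (median 0.27), with Dpt (1.93) and Ogn, a small proteoglycan (0.88), at the top and Col1a1, a fibrillar collagen, at the bottom (-0.57). At 24 h all 13 were above 0 and at 12 h 7. The summed stroma signal was 3370 to 8270 in controls and 5550 to 8420 with AMH at 12 h, and 7120 to 9990 and 8840 to 12700 at 24 h, so it was highest in the group in which Dpt and Spon1 rose, and its part in that rise was not tested. Of 4 theca genes 3 were above 0 (median 0.17), among them Cyp17a1 and the nuclear receptor Nr2f2 (0.31), with summed signals of 1620 to 2460 in controls and 1890 to 3150 with AMH at 24 h. Surface epithelium had 7 of 12 above 0 (median 0.12), with the uroplakin Upk1b at 0.83 and Lrrn4 at 0.61. Granulosa genes had 7 of 14 (median 0.04), from Nr5a2, a nuclear receptor needed for ovulation (-0.57), to follistatin, Fst (0.87), with the transporter Slc18a2 at 0.55. The oocyte list had 8 of 22 (median -0.09, range -0.33 to 0.47), and its mean change within pairs ran from -0.93 to 1.02 at 12 h and from -1.38 to 0.96 at 24 h. The oocyte growth factors Gdf9 and Bmp15 had differences of -0.11 (SE 0.63) and -0.18 (SE 0.51). The red blood cell list had 1 gene measured of 7 and is not described further.

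The receptors of AMH had small differences. Of 8 receptor and SMAD genes 5 were above 0 (median 0.06). Amhr2 had changes of 0.43 at 12 h and 0.01 at 24 h, a difference of -0.42 (SE 0.23, adjusted p = 0.904), and at 24 h controls read 10.40, 10.89, 10.38 and 10.46 and AMH arrays 10.84, 10.47, 10.39 and 10.46. Apart from control replicate 2 and AMH replicate 1 these were nearly level. Amh itself was dim, with a difference of -0.49 (SE 0.74), and the type I receptor Acvr1 had 0.32. Of 11 genes of the SMAD1/5/9 target list, 10 were above 0 (median 0.29, with medians of 0.03 at 12 h and 0.48 at 24 h). Id4, a helix-loop-helix inhibitor of differentiation, had levels of 5.89, 5.82, 6.31 and 5.98 in controls and 5.13, 5.80, 5.48 and 6.09 with AMH at 12 h, and 4.86, 4.41, 5.36 and 5.64 in controls and 6.46, 6.40, 5.43 and 5.87 with AMH at 24 h. Pairs 1 and 2 of 24 h carried its change (1.59 and 1.98, against 0.08 and 0.23), and its difference was 1.35 (SE 0.47, adjusted p = 0.765). The Notch and BMP target Hey1 had 0.67 and the inhibitory Smad7 0.79, while Id1 had 0.28, Id2 0.12, Id3 0.30 and Smad6 0.10. Id2, Id3 and Smad6 had the other sign when 1 pair or 2 were left out, as given in the closing section. Of 11 SMAD2/3 targets 6 were above 0 (median 0.12), with Snai2, a repressor of epithelial genes (0.64), and Pmepa1, a feedback inhibitor (0.58), highest.

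Inhba, the β subunit of activin A and inhibin A, had levels of 8.56, 8.86, 8.47 and 9.63 in controls and 9.12, 8.57, 8.13 and 8.25 with AMH at 12 h, and 9.35, 9.82, 10.23 and 9.45 in controls and 11.06, 10.71, 10.99 and 9.97 with AMH at 24 h. All AMH arrays at 24 h lay above their own controls, by 0.52 to 1.70, whereas at 12 h pair 1 was higher and the other pairs lower. The difference was 1.33 (SE 0.37, adjusted p = 0.533). Of the 9 genes of inhibin, activin and follistatin 5 were above 0 (median 0.10), with Fst at 0.87 (SE 0.64), Inhbb at 0.10 (SE 0.78), the α subunit Inha at -0.28 and Fstl3, an activin-binding protein, at -0.75. Other, dimmer probe sets gave 0.42 for Fst and 0.62 for Inhbb. In the IGF system 15 of 16 were above 0 (median 0.27). Next to Igfbp5 the highest was Stc1, stanniocalcin, which inhibits the protease that cleaves IGF-binding proteins (1.27, SE 0.54), and Igfbp6 had 0.37. Igf1, the exception, had -0.06 (SE 0.47). The other fixed genes were Fshr, the FSH receptor (0.33, SE 0.46), Kitl, the ligand of the oocyte's Kit receptor (-0.18), and the cyclin Ccnd2 (0.02). Adjusted p values of the 19 measured fixed genes, Cyp17a1 included, lay between 0.323 and 0.998. Lhcgr and Cyp19a1 fell under the level filter and were not tested.

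In steroid synthesis 3 of 9 genes were above 0 (median -0.24), and Cyp17a1 was among those 3. The median was -0.02 without 24 h replicate 1, -0.45 without 24 h replicate 4 and -0.09 with median centring, where that of all genes was 0.15. The cholesterol side-chain cleavage enzyme Cyp11a1 had -0.64 (SE 0.56), the dehydrogenase Hsd3b1 -0.39, its list's only other gene under an unadjusted p of 0.05, the electron donor Fdx1 -0.42 and the cholesterol carrier Star -0.24 (SE 0.52). Cyp11a1 was -0.02 without 24 h replicate 1 and -1.12 without 24 h replicate 4. Other, dimmer probe sets gave -0.11 for Cyp11a1 and -0.58 and -0.66 for Star. Of 20 cholesterol synthesis genes 3 were above 0 (median -0.14), among the lowest Hmgcs1 (-0.34) and the mevalonate kinase Mvk (-0.37). That median was 0.09 without 12 h replicate 3, 0.008 with median centring (0.15 over all genes) and -0.42 without replicate 4. Of 19 genes of the ovulatory LH response 16 were above 0 (median 0.45, with medians of -0.21 at 12 h and 0.15 at 24 h). Has2, the hyaluronan synthase of the cumulus matrix, had pair changes of -0.00, -0.40, -0.60 and -1.24 at 12 h and 2.14, 0.01, 0.63 and -0.07 at 24 h. Most of its 24 h mean came from pair 1. Ptgs2, the prostaglandin synthase of ovulation, had -0.34, -0.22, -1.03 and -0.61 and then -0.69, -0.28, 1.41 and 2.40, so pairs 3 and 4 were higher and pairs 1 and 2 lower at 24 h. Their differences were 1.24 (SE 0.50) and 1.26 (SE 0.59), and that of the protease Adamts4 was 0.91. The list's median stayed between 0.38 and 0.66 across 27 alternatives.

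Growth arrest genes went the other way, with 3 of 15 above 0 (median -0.23). At 12 h 12 of 15 were higher with AMH (median 0.23) and at 24 h 7 (median -0.04). Beside Gadd45a these included Mdm2, the negative regulator of p53 (-0.33), Ccng1, a p53-induced cyclin (-0.25), and the stress factor Ddit3 (-0.46). With median centring the list's median was -0.07, beside 0.15 over all genes. Glutathione and xenobiotic enzymes had 5 of 14 above 0 (median -0.06), and 4 of them an unadjusted p under 0.05. Ephx1 (-1.06), the microsomal transferase Mgst2 (-1.37) and the peroxidase Gpx3 (-0.95) were below 0 and Gclc, the ligase that starts glutathione synthesis, above (0.43). Mgst2 and Gpx3 had the same pattern over pairs at 24 h, lower with AMH in pairs 1 to 3 and higher in pair 4 (1.17 and 0.92).

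Of 23 extracellular matrix genes 18 were above 0 (median 0.21). Beside Spon1 the collagen cross-linker Loxl1 had 0.73 and the basement membrane linker Nid1 0.54, and the laminin chain Lama1 lay opposite (-0.73). Angiogenic signals had 9 of 13 above 0 (median 0.28). Fgf2, a growth factor for endothelial and other cells, had levels of 6.56, 6.45, 8.05 and 7.57 in controls and 6.47, 6.58, 7.68 and 7.24 with AMH at 12 h, and 6.96, 6.82, 7.16 and 6.90 in controls and 7.71, 7.68, 7.83 and 7.77 with AMH at 24 h. It was higher with AMH in all pairs at 24 h (0.67 to 0.88) and close to 0 or below at 12 h, and its difference was 0.95 (SE 0.19, adjusted p = 0.319). The adrenomedullin receptor Calcrl had 0.82 and angiopoietin 2, Angpt2, 0.56. Polyamine genes had 5 of 7 above 0 (median 0.17), and next to Sat1 the synthesis enzyme Odc1 had 0.20. Heat shock genes had 6 of 10 (median 0.04), and the near-identical copies Hspa1a (-0.74) and Hspa1b (0.79) gave opposite values, which cross-hybridization makes uncertain. Mitosis genes had 14 of 23 (median 0.05). The kinesin Cenpe and the cyclin Ccnb2 were lowest (-0.82 and -0.79). In pairs 1 to 4 of 24 h the mean change of the mitosis list was 1.48, -0.35, -0.285 and -1.56. That of the oocyte list was 0.96, -0.34, 0.06 and -1.38. At 12 h the mitosis list changed by -0.30, 0.11, 0.40 and -0.58, and the oocyte list by -0.70, -0.03, -0.93 and 1.02. The part of oocyte content in the mitosis values was not tested.

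**Figure D5:**
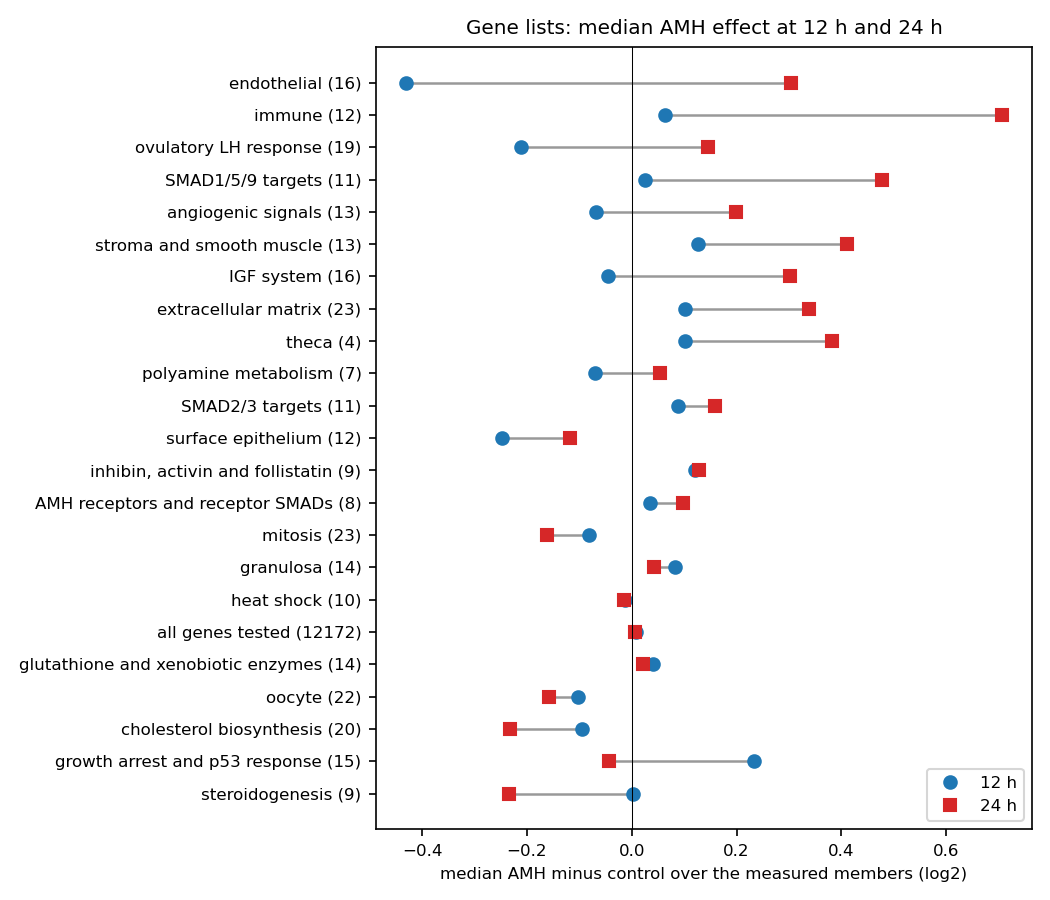
Median AMH effect at 12 h (circles) and 24 h (squares) over the measured members of each list with 3 or more, log2, with the number measured in brackets, ordered by the median difference. The endothelial, immune and ovulatory LH response lists lie at the top (median differences of 0.65, 0.62 and 0.45), and steroidogenesis and growth arrest at the bottom (-0.24 and -0.23). All genes tested lie at 0.00.

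Over 22 lists with at least 3 measured genes, 2 lists (endothelial and immune) had every difference above 0, and none of the 293 distinct members passed the test.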

How the data were processed

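Transcripts were measured on 16 Affymetrix mouse arrays. Linear signal intensities per probe set were deposited by the authors, who used MAS5, version not given in the sources used here, per the submitters' processing notes. With 2% trimmed at each end, every array had a mean of 150, and no further scaling was applied. Of 45101 probe sets, 64 were controls and 34958 had 1 gene symbol in the platform annotation (932 several, 9211 none). Values became log2(signal + 1.46), the offset being the 10th percentile. Probe sets at or above the 40th percentile of mean level (log2 of 4.18, signal of 16.6) were kept, with the highest mean standing for a gene.

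The difference was fitted with limma 3.58.1 in R 4.3.3 on all 16 arrays, with the 8 pairs as fixed blocks, variances moderated along the mean level, two-sided tests and Benjamini-Hochberg adjustment over 12172 genes (threshold 0.05, 6 residual degrees of freedom). The pairing comes from the labels, which state that arrays are pairwise comparable. As a check, paired arrays' deviations from group means correlated at 0.299, 0.349, 0.56 and 0.214 at 12 h and -0.437, 0.327, 0.2 and -0.287 at 24 h. Nothing says that the pools were separate cultures on separate days. The block takes out differences in level between pools, so p-values measure the spread of the AMH minus control change from pair to pair.

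Named genes were the 10 of smallest p in each direction, up to 8 turned genes per direction with changes of at least 0.5 at both times, up to 5 per class that appeared at one time, up to 4 list members by smallest p, and 21 fixed genes. Further endothelial genes were named after their values were seen. The comparison, lists and fixed genes were chosen with earlier results of these data known. Array weights, other scalings, offsets, filters, blocks and left-out pairs were tried as alternatives; leaving out 24 h pairs 1 and 4 was added after the data were seen. The fit was tested on simulated data. Motifs were searched in RefSeq promoters. Plots used matplotlib 3.10.9 (Python 3.11.15).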

Additional observations from a re-analysis of the deposited data

Results flagged for a closer look

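In groups of 4 arrays, a value was singled out when its gap to the nearest other array exceeded Dixon's critical value as a share of the group's range. Of 304 groups looked at, 18 (5.92%) met this, where chance gives about 1 in 20. All values are on the log2 scale of the report. Among genes named for the difference, Slco4a1 was high in control replicate 3 at 12 h (8.07), Tmem204 low in control replicate 2 at 24 h (7.55), Gadd45a low in control replicate 3 at 12 h (7.56), Pyroxd2 low in the same array (4.47) and Dbp low in AMH replicate 3 at 24 h (8.29). Among turned genes, Pnmal2 was low in AMH replicate 2 at 24 h (7.40) and Tarbp2 low in control replicate 1 at 12 h (2.73). Among genes that appeared at one time, Eldr was high in AMH replicate 2 at 12 h (6.44), Hoxc10 low in control replicate 4 at 24 h (3.33) and Gm7969 low in AMH replicate 1 at 24 h (3.83).

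Of the fixed genes, Amhr2 was high in control replicate 2 at 24 h (10.89), Id2 low in AMH replicate 3 at 12 h (7.74) and in AMH replicate 1 at 24 h (8.72), and Id3 low in control replicate 1 (9.25) and high in AMH replicate 1 (10.67) at 24 h. Star was low in AMH replicate 1 at 24 h (9.17) and Gdf9 high in control replicate 4 at 24 h (9.50). The immune list's mean was low in AMH replicate 2 at 12 h (5.37). AMH replicate 1 at 24 h, 1 of the 2 arrays of highest oocyte mean at that time, holds 4 of these values.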

How the results depend on the processing

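Under 28 alternatives none of the 20 genes of smallest p reversed, which their choice by this difference favours. The alternatives of block, variance moderation and filter changed p-values or the genes kept. They left the difference of a gene as it was and so could reverse none. Of 126 genes followed, 115 never reversed and 7 passed at least once. No gene passed without the replicate block (0 called, lowest adjusted p 0.237), with it as a random effect (0.116) or by number over both times (0.0846). By limma 1 gene passed after quantile normalization (Igfbp5, adjusted p 0.0226), and with array weights 3 passed above 0 and 2 below (Cela3b, Igfbp5, Dpt, Gadd45a and Emcn, adjusted p 0.0189 to 0.0379). With pairs left out, 0 to 1 passed above 0: Tmem204 without replicate 1 (0.0494), Itga8 without 12 h replicate 4 (0.0439) and Slco4a1 without 24 h replicate 2 (0.0241).

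The turned counts of 74 and 56 became 121 and 9 with median centring, and the second became 93 with no filter. With pairs left out they ranged from 94 to 357 and from 69 to 379, and were 327 and 384 without 24 h pairs 1 and 4, since fewer pairs had to concur.

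The 11 genes that reversed all had an unadjusted p of 0.173 or more for the difference. Ccnd2 reversed with quantile normalization (-0.01) and the mean of probe sets (-0.11), Igf1 with median centring (0.10) and the mean of probe sets (0.051), Gdf9 with median centring (0.046), and Inhbb (-0.28) and Star (0.12) with array weights. Median centring put the median difference of all genes at 0.15. Without 24 h pairs 1 and 4, Id3 (-0.041), Smad6 (-0.019), Inhbb (-0.44), Star (0.14) and Bmp15 (0.038) reversed. With pairs left out in turn, Id2 ranged from -0.28 to 0.57, Id3 from -0.01 to 0.49, Smad6 from -0.30 to 0.47, Inhbb from -0.73 to 0.57, Star from -0.56 to 0.34, Ccnd2 from -0.44 to 0.44, Igf1 from -0.56 to 0.22, Kitl from -0.40 to 0.063, Gdf9 from -0.87 to 0.80, Bmp15 from -0.68 to 0.67 and Sox18 from -0.022 to 0.77. The causes were not tested. Signals near the filter limit what the dim genes can show.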

Other observations

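A few further turned genes were picked after their values were seen, and no list they might belong to was counted. Fgfr1, a receptor for fibroblast growth factors, had a change with AMH of -0.57 at 12 h and 0.31 at 24 h. Spry2, a feedback inhibitor of such receptors, had -0.38 and 0.38, the small GTPase Gem had -0.32 and 0.72, and Cdkn2b, an inhibitor of cyclin-dependent kinases known to respond to transforming growth factor β, had -0.35 and 0.59. Their differences were 0.88 (SE 0.23), 0.76 (SE 0.17), 1.04 (SE 0.21) and 0.94 (SE 0.24), and by limma none passed (adjusted p = 0.452, 0.333, 0.319 and 0.445). Myc, a transcription factor of cell growth, turned the other way, with 0.60 at 12 h and -0.485 at 24 h (difference -1.08, SE 0.27, limma adjusted p = 0.42).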
